A study of Mus musculus with 4 samples.

Results

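Striatal-type immature GABAergic neurons made up 69 of the 1121 cells analysed from embryonic mouse brain, or 6.16% (exact Clopper-Pearson 95% interval 4.82 to 7.73%, which covers counting error only). When each cell was thinned to at most 3000 UMIs, 45 cells (4.01%) met the rule, 44 of them among the 69. Membership was decided from Illumina counts of unique molecular identifiers (UMIs, tags that mark single captured RNA molecules), in cells with at least 1400 detected genes. A member had 2 or more UMIs summed over the GABAergic genes Gad1, Gad2, Dlx1, Dlx5 and Dlx6os1, and at most 2 over the glutamatergic genes Neurod2 and Neurod6. It also had 2 or more UMIs over the striatal genes Ebf1, Isl1, Foxp2 and Zfp503, a sum that had to exceed that of the interneuron genes Lhx6, Maf, Nxph1 and Sst. Cells with 5 or more UMIs over 8 division genes were left out. Because the members were picked from these values, the levels of all genes in the same cells are given as a description, without tests. Tests were reserved for which isoform of a gene was used, read on the Nanopore platform from the same barcodes.

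All cells came from a single C57BL/6 mouse at embryonic day 18, from a suspension of cortex, hippocampus and sub ventricular zone. No genotype change or treatment was applied. One droplet emulsion was divided before reverse transcription into an aliquot of 190 cells and an aliquot of 951 cells, and each cDNA was read by Illumina short reads and by full-length Nanopore reads. The aliquots are therefore technical replicates of 1 animal, and every p-value below measures only the spread between them.

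Striatal projection neurons are GABAergic cells born in the lateral ganglionic eminence, and they form the bulk of the striatum. They later divide into direct-pathway neurons, which carry the dopamine receptor Drd1, and indirect-pathway neurons, which carry Drd2. Cortical interneurons are also GABAergic but come mainly from the medial and caudal eminences, where Lhx6, Maf or Nr2f2 mark them. The striatum is not named among the tissues of the sample label, although it borders the sub ventricular zone.

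The smaller aliquot held 10 members of 186 cells (5.38%, exact interval 2.61 to 9.66%) and the larger 59 of 935 (6.31%, 4.84 to 8.06%), so the shares overlapped. Among GABAergic cells outside division the members were 10 of 48 (20.8%, 10.5 to 35%) and 59 of 264 (22.3%, 17.5 to 27.9%). For comparison, 125 cells were interneuron-type (the interneuron sum at 2 or more and above the striatal sum). A further 118 were other GABAergic cells with neither profile, 448 were glutamatergic and 88 were radial glia-type progenitors. Glutamatergic cells had 3 or more UMIs over Neurod2 and Neurod6, fewer than 2 over the GABAergic genes and fewer than 5 over the division genes. They also had fewer than 3 over the radial glia genes Slc1a3, Hes5, Sox9 and Sox2. Radial glia-type cells had 3 or more over those genes, fewer than 2 GABAergic and at most 2 glutamatergic UMIs, with no limit on division genes. The members yielded 53458 and 369376 Illumina UMIs in the 190 and 951 cell aliquots, and 29584 and 222209 Nanopore UMIs assigned to isoforms. Their median depth was 5956 Illumina UMIs and 2224 genes per cell, close to the 5143 UMIs of interneuron-type cells and below the 8558 of glutamatergic and 10559 of radial glia-type cells. A total of 13 barcodes occurred in both aliquots, and 2 of them were striatal-type in both, so 4 of the 69 members shared a barcode. That is 2 of the 10 members in the smaller aliquot. Of 12 such pairs kept in both aliquots, 8 had the same class. Whether the pairs came from the same cells was not tested, so the aliquots may not be wholly separate sets of cells. A doublet caller marked 1 and 3 cells in the 2 aliquots, none of them members.

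The striatal sum ranged from 2 to 86 UMIs among members, with a median of 8, and 48 members had 4 or more. Just inside the threshold were 12 members with a sum of 2, and just outside it 36 cells with a sum of 1, which include cells of the interneuron-type class. Meis2, a homeobox factor of the lateral eminence that the rule did not use, stood at 2437 CPM (a gene's UMIs as a part of all gene UMIs of the class, scaled to a common library size of 1e+06) in the former and 1170 in the latter. Foxp1, a forkhead factor of striatal neurons, stood at 272 CPM in the 12 members and 87.2 CPM in the 36 cells outside, against 771 CPM in members with a sum of 4 or more. Interneuron genes were at 0 UMIs in 66 members and glutamatergic genes at 0 in 61. Among cells with 2 or more GABAergic UMIs and a striatal sum of 2 or more, 2 were left out because that sum did not exceed the interneuron sum, 1 for glutamatergic genes and 13 for division genes. A further 11 cells had a striatal sum of 4 or more but fewer than 2 GABAergic UMIs. Meis2 in those cells was 136 CPM, far below any band of members.

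The genes used for selection were high in both aliquots, as the rule required. Ebf1, a transcription factor of early striatal neuron differentiation, was at 3294 CPM in the 190 cell aliquot (exact Poisson 95% interval 2825 to 3818) and 2048 CPM in the 951 cell aliquot (1905 to 2199). Isl1, a LIM-homeobox factor linked to direct-pathway neurons, was at 412 and 449.7 CPM. Foxp2, a forkhead factor of striatal projection neurons, was at 561.5 and 319.7 CPM, and the zinc finger factor Zfp503 at 168 and 187 CPM. In interneuron-type cells Ebf1 was at 28.4 and 10.8 CPM and Zfp503 had no UMI in either aliquot. Gad2, one of the enzymes that make GABA, was at 917 and 531 CPM in members and 587 and 423 CPM in interneuron-type cells, whereas glutamatergic cells had 7.33 and 4.54 CPM. Of the 6 markers that define the label, all were detected in both aliquots.

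Striatal transcription factors that the rule did not use were also high. Of 29 such factors listed, 23 reached 20 CPM in either class, and 12 of these were at least 2-fold higher than in interneuron-type cells in both aliquots and 2 were at least 2-fold lower, on a scale of CPM plus 10. Among all 6213 genes compared, excluding those of the rule, 1.42% were higher and 2.88% lower by the same criterion. The median log2 ratio of the 23 factors was 1.57 and 1.30 in the 190 and 951 cell aliquots, beside -0.07 and -0.05 over all genes. Zfhx3, a large homeobox factor, was at 281 and 162.5 CPM in members and had no UMI in interneuron-type cells. With a floor of 3 UMIs per library for the class at 0, Zfhx3 was at least 9.89-fold and 30-fold higher. Meis2 was at 2339.6 and 2354 CPM against 18.9 and 43.3 CPM, ratios of 81.2 and 44.3 on the CPM plus 10 scale. Foxp1 was at 824 and 639 CPM against 56.8 and 32.5 CPM. Both also lay above the other GABAergic cells, which had 947 and 1125 CPM of Meis2 and 239 and 171 CPM of Foxp1.

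Bcl11b (Ctip2), required for maturation of striatal projection neurons, was at 1142 and 767 CPM in members. It was lower in every other class, at 378 and 318 CPM in interneuron-type and 224 and 186 CPM in glutamatergic cells. Pbx3 (168 and 176 CPM) and Six3, a homeobox factor of indirect-pathway precursors (149.7 and 127 CPM), exceeded the interneuron-type cells but were as high or higher in other GABAergic cells in at least 1 aliquot. Meis1, Rarb, Sox8, Pou3f1, Zfhx4 and Tshz1 completed the 12. The 2 lower factors were Zeb2, which directs interneurons of the medial eminence to the cortex, and Mef2c, an activity-regulated factor. Mef2c was at 56.1 and 127 CPM in members and 1419 and 1186 CPM in interneuron-type cells.

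**Figure D1:**
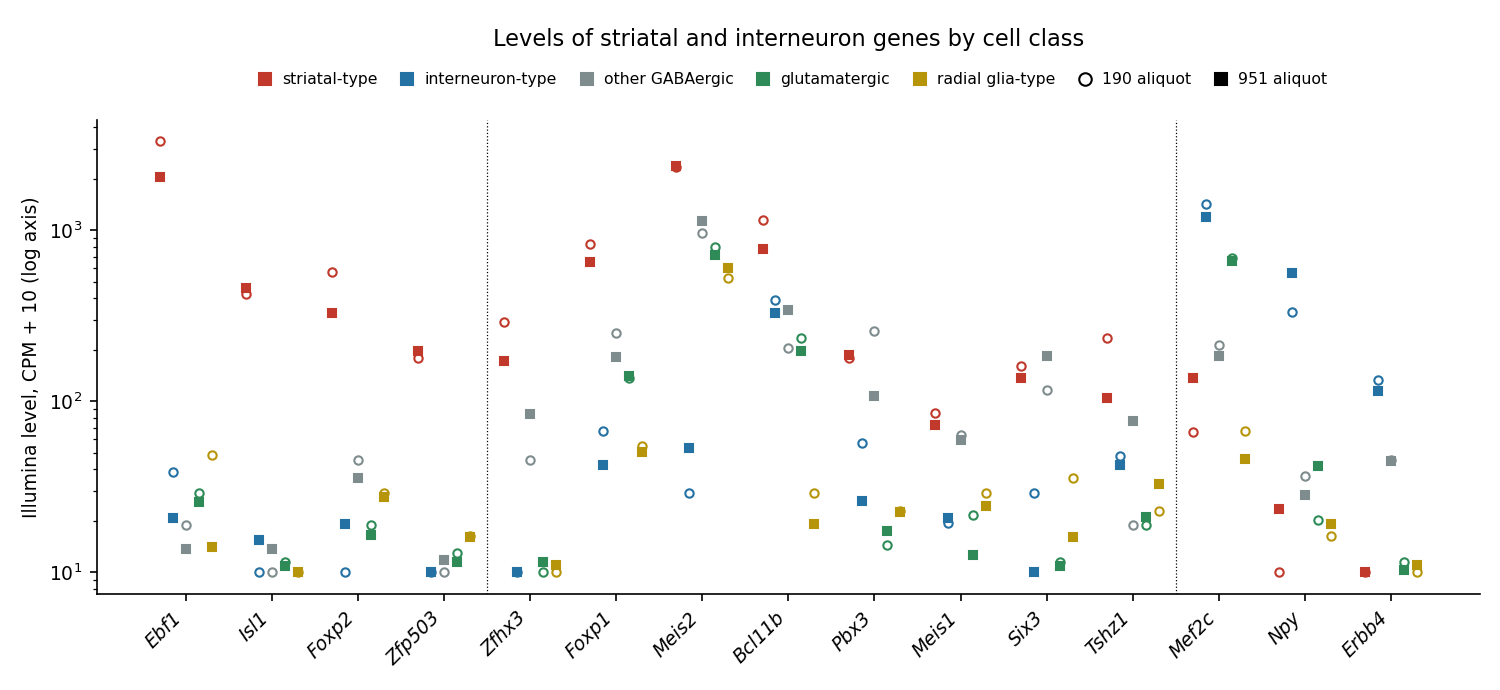
Level of 15 genes in each cell class, as CPM plus 10 on a log axis, with an open circle for the 190 cell aliquot and a square for the 951 cell aliquot; the first 4 genes were used to choose the members, the next 8 are other striatal factors and the last 3 are genes of interneuron-type cells. Striatal-type cells held the highest Zfhx3, Foxp1, Meis2 and Bcl11b in both aliquots, while Mef2c, Npy and Erbb4 were highest in interneuron-type cells.

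Among genes outside the rule with at least 50 CPM in both aliquots, the 15 with the highest ratio against all 1052 other cells were ranked by the smaller of the 2 aliquots. They were led by Zfhx3, at 17.9-fold and 7.94-fold on the CPM plus 10 scale. Besides the factors above they held Lypd1, a modulator of nicotinic receptors, at 112 and 67.7 CPM. The homeobox gene Nkx2-3 (56.2 and 81.3 CPM), the G-protein regulator Rgs2 (243 and 295 CPM), Klhl13 and the vesicular GABA transporter Slc32a1 were also among the 15.

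Compared with interneuron-type cells, and again among genes outside the rule with at least 50 CPM, the highest ratios after Meis2 and Zfhx3 belonged to Islr2. This membrane protein of growing axons was at 767 and 734 CPM against 9.46 and 37.9 CPM. Islr2 was also expressed in glutamatergic cells, at 285 and 317 CPM. Pcp4, a calmodulin-binding peptide, was at 281 and 249 CPM against 9.46 and 25.3 CPM. Ephb1, a receptor for ephrins in axon guidance, was at 74.9 and 62.3 CPM with no UMI in interneuron-type cells, at least 2.64-fold and 11.5-fold higher. Spata13, a guanine exchange factor, and Apbb2, an adaptor of the amyloid precursor protein, completed the 10.

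**Figure D2:**
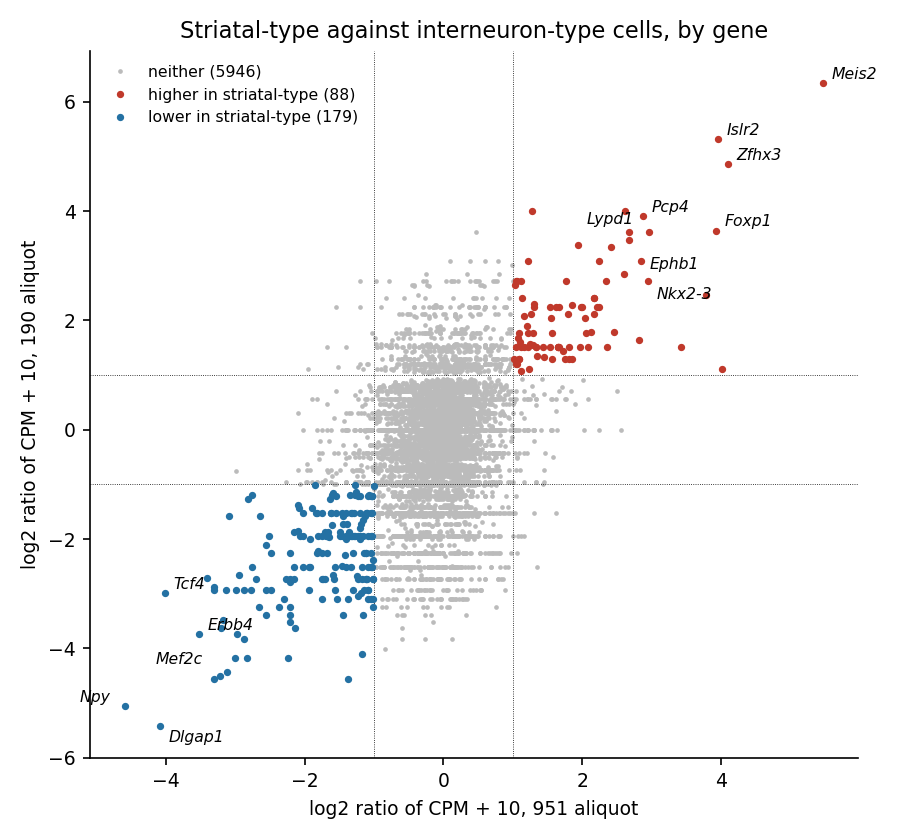
Log2 ratio of striatal-type to interneuron-type cells on the CPM plus 10 scale, with the 951 cell aliquot on the horizontal and the 190 cell aliquot on the vertical axis; each point is a gene. The 88 genes more than 2-fold higher and the 179 more than 2-fold lower in both aliquots are coloured, and 5946 genes met neither condition.

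The genes furthest below interneuron-type cells, listed after their values were seen, were led by Npy, a neuropeptide of interneurons, at 0 and 13.5 CPM against 322 and 554 CPM. Erbb4, the neuregulin receptor that migrating interneurons use, had no UMI in members against 123 and 105 CPM, at least 2.19-fold and 12.9-fold lower. Ackr3, a scavenger of the chemokine Cxcl12, was at 0 and 8.13 CPM against 227 and 170 CPM. Dlgap1, Id3, Rpp25, Mef2c, Cux2 and Tcf4 were also among the 10. Of 11 genes of medial eminence interneurons outside the rule, 8 were at least 2-fold lower in both aliquots and none was higher. Over all genes compared 2.88% were lower and 1.42% higher. Interneuron-type cells had themselves been chosen for Lhx6, Maf, Nxph1 and Sst. The whole 15-gene marker list, rule genes included, summed to 356 and 339 CPM in members. In interneuron-type cells the list summed to 3406 and 3992 CPM, and Lhx6 had no UMI in members.

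Tcf4, a broadly expressed helix-loop-helix factor that pairs with proneural proteins, was lower in the members than in every other class. It was at 262 and 106 CPM in members, against 2157 and 1862 CPM in interneuron-type, 1381 and 1187 CPM in other GABAergic, 1665 and 1627 CPM in glutamatergic and 1147 and 1309 CPM in radial glia-type cells. A Tcf4 UMI was seen in 24 of 69 members (34.8%), and no member had more than 9. All 125 interneuron-type cells had one (100%), at a similar median depth, as did 444 of 448 glutamatergic cells (99.1%) and 98 of 118 other GABAergic cells (83.1%). Tcf4 was chosen after its values were seen.

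Among 7 genes of GABA synthesis, transport and reception outside the rule, none was 2-fold higher or lower than in interneuron-type cells in both aliquots, which is close to what the share over all genes gives. Their median log2 ratio was -0.74 and -0.32. Gad1, the other GABA-making enzyme, was at 168 and 103 CPM against 161 and 121 CPM, and Slc32a1 at 93.6 and 89.4 CPM against 142 and 155 CPM. The GABAergic factor Dlx2 was at 93.6 and 154 CPM against 445 and 275 CPM.

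Genes of the mature projection neuron were at or near 0. Drd2, the opioid precursor Penk, the dopamine signalling regulator Ppp1r1b and the muscarinic receptor Chrm4 had no UMI in any member. Drd1 had 1 UMI in each aliquot and the tachykinin precursor Tac1 had 0 and 7 UMIs, the 7 in 1 cell. The adenosine receptor Adora2a, an indirect-pathway gene, had 1 and 10 UMIs. At this depth a gene with no UMI may still have been present at up to 56.2 CPM in the 190 cell aliquot or 8.13 CPM in the 951 cell aliquot.

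Markers of most other cell types were low. Glutamatergic markers summed to 112 and 37.9 CPM in members, against 3068.5 and 2945 CPM in glutamatergic cells, with 3 of 11 at 0 in both aliquots. That list includes Neurod2 and Neurod6, which the rule held low in members and which stood at 876 and 836 CPM and at 1348 and 1324 CPM in glutamatergic cells. Radial glia markers summed to 1235 and 910.2 CPM, led by Dbi (356 CPM) and Ptn (276 CPM), against 19184 and 23414 CPM in radial glia-type cells, and 2 of 14 were at 0 in both. These 14 include the 4 genes for which radial glia-type cells were chosen. Cajal-Retzius markers were a total of 3 UMIs. The list for vessel, microglial, oligodendrocyte-lineage and blood cells summed to 225 and 274 CPM with 10 of 16 genes at 0 in both. Most of it was Hba-a1, a haemoglobin chain, which stood at 168 and 144 CPM in members and at 113 and 143 CPM in glutamatergic cells. Cholinergic and septal neurons, which also use Isl1 or Zic1, have the enzyme Chat, the transporter Slc18a3 and the factor Lhx8 as defining genes, and all 3 were at 0 in members, as were 7 of the 9 genes of that list in both aliquots. Zic1 was not at 0, at 18.7 and 59.6 CPM against 0 and 3.61 CPM in interneuron-type and 44.3 and 132.5 CPM in other GABAergic cells. The highest Zic1 counts in single members were 6, 6 and 4 UMIs, all in cells with Isl1 and without Ebf1. That list summed to 18.7 and 89.4 CPM in members and 18.9 and 70.4 CPM in interneuron-type cells. A list for neuroblasts of the olfactory bulb and dorsal lateral eminence summed to 281 and 203 CPM in members, 151 and 188 CPM in interneuron-type and 558 and 419.7 CPM in other GABAergic cells, and 3 of its 9 genes were at 0 in both aliquots. Of 4 of its genes measured, Tshz1 and the paired-box factor Pax6 were higher than in interneuron-type cells and Etv1 was lower. Over all genes compared 1.42% were higher and 2.88% lower. Tshz1, which is also counted among the striatal factors above, gave most of the 190 cell sum (225 CPM) and 94.8 CPM in the larger aliquot. Htr3a and Nr2f2, genes of caudal eminence interneurons, were at 0 and 5.42 CPM each. The part that cells of other types had in the members' values was not otherwise tested.

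Of 22 guidance genes measured, 8 were lower than in interneuron-type cells, 1 was higher and 13 were neither by the criterion. Their median log2 ratio was -1.70 and -0.02 in the 190 and 951 cell aliquots, and Ephb1 was not on the list. Over all genes compared 1.42% were higher and 2.88% lower. The higher gene was Epha4, an ephrin receptor, at 805 and 490.3 CPM against 227 and 105 CPM. Epha5, a related receptor, was at 112 and 111 CPM against 927 and 949.8 CPM. Lower by the same criterion were Epha3, the ephrin Efnb2, the chemokine receptor Cxcr4, the adhesion molecule Ncam1, Ackr3, Erbb4 and the semaphorin Sema6a. Sema6a had no UMI in members, and with the floor of 3 UMIs it was at least 4.22-fold lower in the 951 cell aliquot and not shown to be lower in the 190 cell aliquot. Of 28 genes of neuronal maturation, 3 were higher and 3 were lower. The neurofilament gene Nefm was higher, at 131 and 157 CPM against 18.9 and 36.1 CPM, as were Nefl and Igfbpl1, a gene of newly born neurons at 1666 and 1330.1 CPM. The synaptic vesicle gene Syt1, at 18.7 and 114 CPM against 227 and 279.9 CPM, was lower, as was Rbfox3. The pan-neuronal tubulin Tubb3 was abundant at 4305 and 4009 CPM.

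Against glutamatergic cells, 1.34% of 6139 genes were higher and 3.75% lower by the same criterion. The striatal factors had 14 of 23 higher and 3 lower, with median log2 ratios of 2.02 and 1.99 beside -0.11 and -0.01 over all genes. Of the 12 genes on the indirect-pathway list 5 were measured, without Drd2 and Penk, which had no UMI in members. All 5 were higher (Adora2a, Sp9, Six3, Grik3 and Cntnap2), although Adora2a had only 1 UMI in the 190 cell aliquot, below the floor of 3. Against interneuron-type cells 2 of these 5 were higher (Adora2a and Six3) and 3 were neither, beside 1.42% higher and 2.88% lower over all genes. Other GABAergic cells held that list at 487 and 442 CPM in sum, above the 468 and 347 CPM of members. Of 4 direct-pathway genes measured outside the rule, Zfp521 was higher and Mef2c lower, against interneuron-type as well as glutamatergic cells. Higher than in glutamatergic cells were also 4 of 4 GABAergic identity genes, and 7 of 8 glutamatergic genes were lower. Of 20 guidance genes 8 were lower, among them the neuropilins Nrp1 and Nrp2 and the plexin Plxna4, and none was higher. Against radial glia-type cells 6.40% of 6768 genes were higher and 11.6% lower. Of 25 maturation genes 19 were higher, all 10 radial glia genes and all 4 cell cycle genes were lower, and 16 of 23 striatal factors were higher and 1 was lower. The rule held division genes low in members, whereas radial glia-type cells had no such limit and were chosen for 4 radial glia genes. The counts of radial glia and cell cycle genes are therefore not free of that choice. The comparisons share the members, and so their values are not independent of each other.

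The members were not uniform. Ebf1 was either absent or abundant, with 41 members at 0 UMIs and 26 at 10 or more (up to 71), and only 2 in between. Isl1 was detected in 43 members (62.3%), Foxp2 in 45 (65.2%) and Zfp503 in 36 (52.2%). In glutamatergic cells, which were deeper, Ebf1 was detected in 10.0%, Foxp2, also a gene of deep-layer cortical neurons, in 5.58%, Zfp503 in 1.56% and Isl1 in 0.893%. In interneuron-type cells, chosen in part for a low striatal sum, the shares were 7.2% for Ebf1, 3.2% for Foxp2 and 2.4% for Isl1. Of the genes outside the rule, Meis2 was detected in 67 members (97.1%), Bcl11b in 60 (87.0%), Foxp1 in 40 (58.0%) and Zfhx3 in 30 (43.5%). In 25 members only 1 of the 4 striatal rule genes was detected, in 16 of them Foxp2, and in 9 members all 4 were.

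For description the members were divided, after their values were seen, into 27 with at least 3 UMIs of Ebf1, 20 with fewer but with Isl1, and 22 with fewer and no Isl1. The aliquots contributed 5 and 22, 1 and 19, and 4 and 18 cells, in that order. All 4 members that shared a barcode were in the Ebf1 set. Gad2 was alike in the sets, at 599, 538 and 593 CPM with both aliquots summed. Meis2 was high in each, at 2028 CPM in the Ebf1 set (exact Poisson interval 1821 to 2253), 2438 CPM in the Isl1 set and 2701 CPM in the third (2423 to 3001). Foxp1 was 1069 CPM in the Ebf1 set, 220.2 CPM in the Isl1 set and 539 CPM in the third, and Bcl11b 1168, 506 and 632 CPM. In the third set Foxp1 was detected in 8 of the 22 cells, and single cells held 26, 14, 13 and 11 of its 69 UMIs. The Ebf1 set carried Ntrk3, the neurotrophin-3 receptor, in 20 of 27 cells (256 CPM) against 4 of the other 42 members (27.9 CPM). Zfp521, a zinc finger gene of direct-pathway precursors, was found there in 11 cells (87.2 CPM) against 1 of the others (3.99 CPM). The adhesion gene Cntn5 was found in 10 against 1, and Rgs2 was at 558 against 104 CPM.

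The Isl1 set stood out by Tshz2, a teashirt-family factor, in 15 of 20 cells (391 CPM) against 4 of the other 49 (23.3 CPM). The third set, with neither gene, stood out by Tshz1, another teashirt factor, in 11 of 22 cells (343 CPM) against 2 of the other 47 (10.2 CPM). Six3 in that set was 273 CPM against 67.9 CPM. Sp9, also on the indirect-pathway list, was 219 CPM there against 17.4 CPM in the Ebf1 set and 114 CPM in the Isl1 set. It was not particular to members, at 322 and 150 CPM in interneuron-type and 345 and 177 CPM in other GABAergic cells. Across the sets Gad1 ran the same way as Sp9, at 34.9, 114 and 211 CPM from the Ebf1 set to the third, as did Pbx3 at 63.9, 163 and 336 CPM. Nefm ran differently, at 285, 48.9 and 78.0 CPM. Tcf4 was detected in 37.0, 30 and 36.4% of the cells of the sets, so its low level was not a property of 1 set. These sets were made from the values shown and are no test of distinct types.

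**Figure D3:**
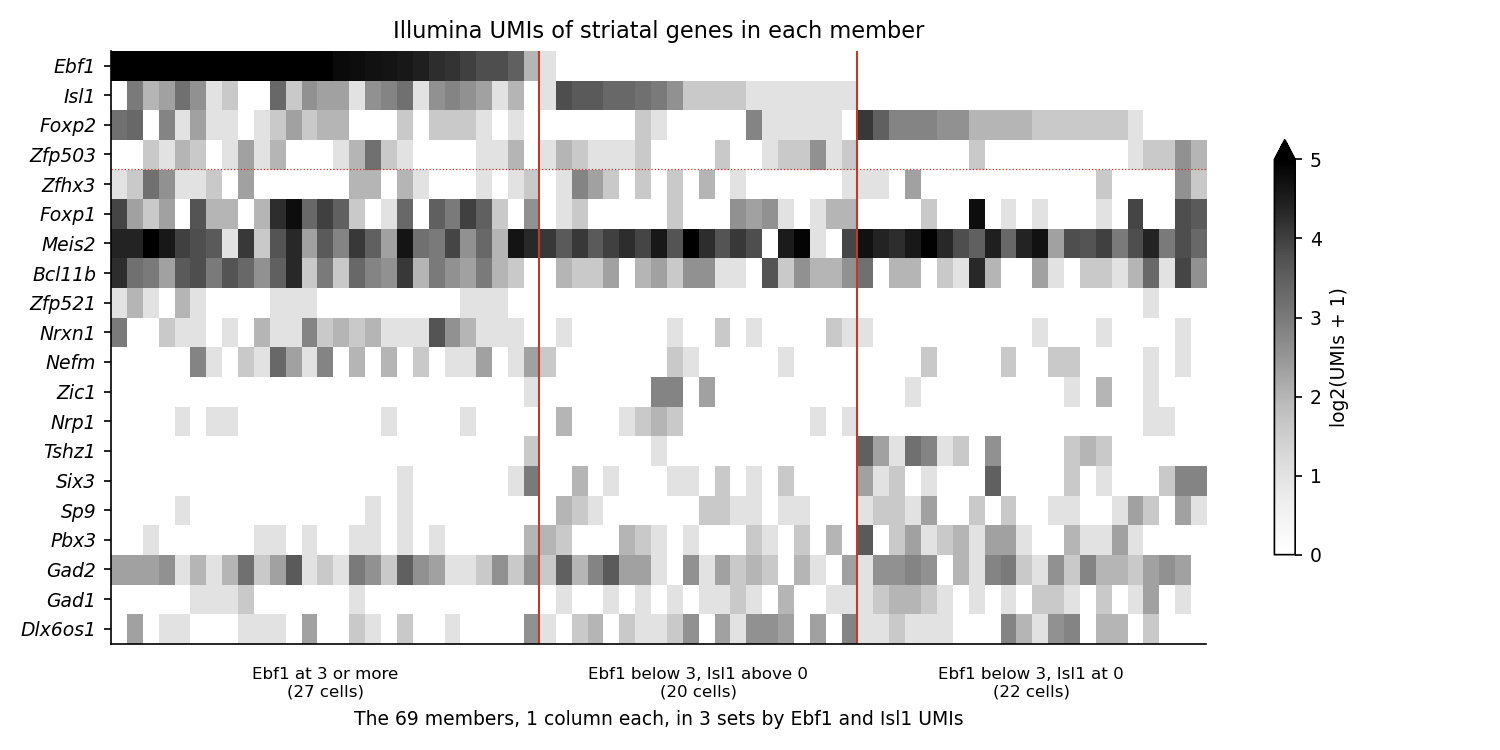
Illumina UMIs of 20 genes in each of the 69 members, as log2 of UMIs plus 1, with members arranged by Ebf1 and Isl1 content into sets of 27, 20 and 22 cells. Ebf1 was dense in the first set and nearly absent in the others, whereas Meis2 ran through all 3 sets and Tshz1 was concentrated in the third.

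Isoform choice was not used to select the cells, so it could be tested. Nanopore UMIs were summed by isoform, class and aliquot for 4 classes, and the difference in isoform usage between classes was tested per gene over 399 genes that passed a filter on low counts. In the edgeR quasi-likelihood test of differential isoform usage with Benjamini-Hochberg adjustment, 4 genes passed an adjusted p of 0.05 against interneuron-type cells (1.00% of those tested), 3 against glutamatergic cells (0.752%) and 39 against radial glia-type cells (9.77%). With the aliquot as a block, the count against interneuron-type cells was 7, including the same 4 and Myl6. The count was then 4 against glutamatergic and 50 against radial glia-type cells. Without adjustment 35, 33 and 84 genes had a p under 0.05. Clta and Crmp1 passed against both neuronal classes. These calls depended on single libraries. Without the 951 cell library of the members no gene passed against interneuron-type or glutamatergic cells in the edgeR test (44 and 37 genes at an unadjusted p under 0.05) and 6 passed against radial glia-type cells. Without that of interneuron-type cells none passed against that class (33 at an unadjusted p under 0.05), and without that of radial glia-type cells 14 passed against theirs.

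Clta encodes the light chain A of clathrin, the coat protein of endocytic vesicles, and its neuronal form carries an added short exon. The isoform Clta-204 holds a 54 base exon, the fifth of the transcript, at chr4:44030215-44030268 on the plus strand (GRCm38, Gencode vM21), which Clta-206 lacks. The exon is shown in capitals between the 24 flanking bases of the transcript on each side, because it is the coding difference between the 2 leading Clta isoforms. Shares below are of the isoform Clta-204, and inclusion of the exon over all Clta isoforms was not counted.
Clta-204 exon 5: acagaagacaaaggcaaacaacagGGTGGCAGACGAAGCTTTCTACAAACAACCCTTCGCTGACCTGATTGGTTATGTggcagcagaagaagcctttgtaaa
Members read Clta-204 in 10 of 19 UMIs (52.6%, exact interval 28.9 to 75.6%) in the 190 cell aliquot and 65 of 155 (41.9%, 34.1 to 50.1%) in the 951 cell aliquot. Interneuron-type cells had 33 of 43 (76.7%) and 181 of 228 (79.4%), and glutamatergic cells 184 of 239 (77.0%) and 1030 of 1391 (74.0%). Radial glia-type cells had 2 of 36 (5.56%) and 9 of 289 (3.11%). The members were thus below both neuronal classes and above the progenitors in each aliquot. The share was 35.9 percentage points lower than in interneuron-type cells (adjusted p 0.000536, edgeR) and 31.4 points lower than in glutamatergic cells (0.000248), and it was higher than in radial glia-type cells (1.71e-08). Without the 190 cell library of glutamatergic cells the adjusted p against them was 0.0979 (edgeR). With no filter on low counts, over 7139 genes, the adjusted p against interneuron-type cells was 0.240 (edgeR). Other GABAergic cells, which were not in the fit, lay between at 59.8%. The level of the gene itself was alike, at 487 and 469 CPM in members and 464 and 493 CPM in interneuron-type cells. Counted by cell, 28 of 69 members had UMIs of both forms, 10 only Clta-204, 20 only Clta-206 and 11 neither. Among interneuron-type cells 74 of 125 had only Clta-204 and 6 only Clta-206.

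Crmp1 encodes a collapsin response mediator protein, which acts in semaphorin signalling at the growth cone. Its isoforms Crmp1-201 and Crmp1-202 start at different first exons, and Crmp1-202 has the longer coding sequence (2058 against 1716 bases). The first exons lie at chr5:37245764-37246096 for Crmp1-201 and chr5:37242080-37242525 for Crmp1-202, on the plus strand of GRCm38. The start of each coding sequence in those exons is shown with the start codon in capitals, since it is what the Crmp1 difference turned on. For Crmp1-201 these are all 39 coding bases of the exon (chr5:37246058-37246096), and for Crmp1-202 the first 90 of 381 (chr5:37242145-37242234).
Crmp1-201: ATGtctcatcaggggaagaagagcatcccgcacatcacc
Crmp1-202: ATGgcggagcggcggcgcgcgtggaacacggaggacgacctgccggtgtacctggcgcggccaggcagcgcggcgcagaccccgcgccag
No member UMI was of Crmp1-202, with 0 of 15 in the 190 cell aliquot and 0 of 107 in the 951 cell aliquot, which allows shares of up to 20% and 2.80%. Interneuron-type cells had 5 of 30 (16.7%) and 27 of 180 (15%), and glutamatergic cells 25 of 190 (13.2%) and 186 of 1059 (17.6%). The difference passed against both (edgeR adjusted p 0.000906 and 0.000248), and not against radial glia-type cells (0.967), where Crmp1-202 was read in 0 of 3 and 0 of 18 UMIs. By DESeq2 Crmp1 did not pass, with adjusted p of 0.132 and 0.0990 against the 2 neuronal classes. Crmp1 itself was at 693 and 607 CPM in members and 634 and 787 CPM in interneuron-type cells. Of the 69 members 55 had only Crmp1-201 and 14 had no UMI of either. In interneuron-type cells 24 of 125 had Crmp1-202, 8 of them without the shorter form.

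The other calls were weaker. Ergic3 encodes a membrane protein that cycles between endoplasmic reticulum and Golgi, and Ergic3-202 carries a 15 base microexon, its eighth exon, at chr2:156015377-156015391 on the plus strand. Ergic3-202 also has 18 more coding bases in its exon 10 (chr2:156016688-156016705) than Ergic3-201, so the share belongs to both differences. The microexon is in capitals between flanking transcript bases.
Ergic3-202 exon 8: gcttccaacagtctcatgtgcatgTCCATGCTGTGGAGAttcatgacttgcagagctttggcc
Members had 5 of 6 (83.3%) and 45 of 59 (76.3%) UMIs of Ergic3-202, against 91 of 95 (95.8%) and 536 of 563 (95.2%) in glutamatergic cells and 3 of 20 (15%) and 4 of 113 (3.54%) in radial glia-type cells. The lower share than in glutamatergic cells passed (edgeR adjusted p 0.0142), and that against interneuron-type cells, which had 94.5%, did not (0.180). Other GABAergic cells were at 77.8% and the members at 76.9% with both aliquots summed. Without the 951 cell library of glutamatergic cells the former was 0.348. It was also lost with a striatal sum of at least 3 (edgeR adjusted p 0.135), with interneuron genes at 0 (0.0512), with no filter on low counts, and by DESeq2 (0.0990). Vps29 encodes a subunit of the retromer, which returns cargo from endosomes, and Vps29-204 carries a 12 base second exon at chr5:122356794-122356805 on the plus strand, again in capitals.
Vps29-204 exon 2: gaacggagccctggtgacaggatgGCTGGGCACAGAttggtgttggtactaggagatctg
Vps29-204 took 3 of 7 (42.9%) and 14 of 53 (26.4%) member UMIs and 0 of 13 and 5 of 78 (6.41%) interneuron-type UMIs, with an edgeR adjusted p of 0.0426, which became 0.0570 without the barcodes found in both aliquots. The same adjusted p was reached by Rpn2, a subunit of oligosaccharyltransferase, on only 22 member UMIs. Rpn2-202 was 77.3% of them, against 19.0% in interneuron-type cells, and without those barcodes it too had an edgeR adjusted p of 0.0570. Leaving out the 190 cell library of members gave 0.371 for Vps29 and 0.0672 for Rpn2, and leaving out any 1 of the other libraries gave 0.0597 or more for Vps29. Both calls were also lost with interneuron genes at 0 (edgeR adjusted p 0.0602 for Vps29 and 0.0533 for Rpn2), with no filter on low counts and by DESeq2 (adjusted p 0.218 for each). With only the 2 classes compared neither gene passed the filter on low counts.

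**Figure D4:**
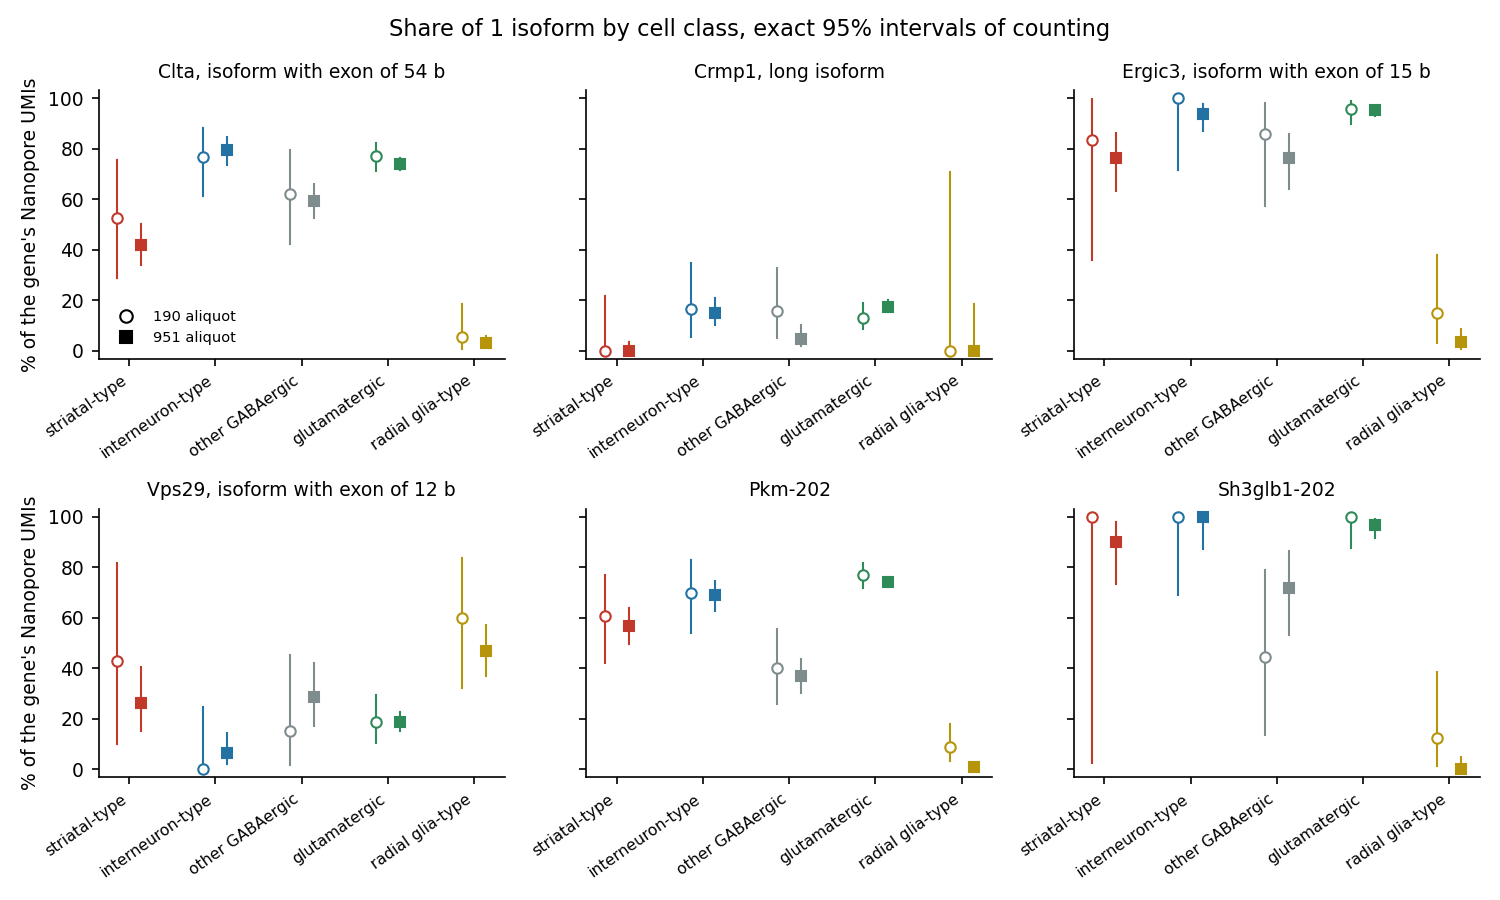
Share of a gene's Nanopore UMIs that came from the named isoform, in percent, for each cell class with both aliquots plotted and exact 95% intervals that cover counting error. Members sat between radial glia-type and the other neurons for Clta, at 0 for the long Crmp1 form, and with the neurons for Sh3glb1-202.

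Against radial glia-type cells, 31 of the 39 genes that passed had at least 30 UMIs in both classes, and in all 31 the isoform with the largest change, whether up or down, moved the same way in both aliquots. The largest change among them was in Sh3glb1, which encodes endophilin B1, a protein that bends membranes. Sh3glb1-202 holds a 39 base exon at chr3:144701808-144701846 and the next exon of 24 bases at chr3:144699854-144699877, both on the minus strand and shown in capitals.
Sh3glb1-202 exon 6: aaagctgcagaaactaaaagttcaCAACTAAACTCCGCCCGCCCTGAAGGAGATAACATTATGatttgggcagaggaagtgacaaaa
Sh3glb1-202 exon 7: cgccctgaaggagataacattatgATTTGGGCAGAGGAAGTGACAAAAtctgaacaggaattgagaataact
Members had 1 of 1 and 27 of 30 (90%) UMIs of the isoform Sh3glb1-202, and radial glia-type cells 2 of 16 and 0 of 71. The share of the shorter Sh3glb1-201 fell by 93.3 percentage points (edgeR adjusted p 6.56e-07). Interneuron-type cells were at 100% Sh3glb1-202 and glutamatergic cells at 97.2%. Ergic3-202 rose by 71.7 points (6.32e-08, edgeR). The share of Akap9-207, a short form of a kinase-anchoring protein of the centrosome and Golgi, fell by 65.9 points to 4.69% with both aliquots summed (7.59e-07, edgeR). For Akap9 the aliquots differed, since the share fell by 21.4 points in the 190 cell aliquot, with 7 radial glia-type UMIs, and by 70.0 points in the 951 cell aliquot.

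Psap encodes prosaposin, the precursor of lysosomal activator proteins, and Psap-205 carries a 9 base exon at chr10:60297537-60297545 on the plus strand, in capitals here.
Psap-205 exon 8: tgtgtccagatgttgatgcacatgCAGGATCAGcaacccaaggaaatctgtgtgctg
Psap-205 was 88.6% of member UMIs and 26.0% of radial glia-type UMIs, and the share of Psap-202, which lacks the exon, fell by 62.6 points (edgeR adjusted p 9.05e-06). Gpm6b-206, of a membrane glycoprotein of neurons and glia, was 64.9% against 4.47% (3.57e-08), and the members' share exceeded the 38.0% of interneuron-type and 47.6% of glutamatergic cells, where the difference did not pass. Eef1d-204, of a translation elongation factor, was 58.3% against 2.29% (6.30e-08, edgeR). Pkm-202, of pyruvate kinase, was read in 20 of 33 (60.6%) and 115 of 202 (56.9%) member UMIs and was 1.64% in radial glia-type cells (edgeR adjusted p 1.50e-09). It was 69% in interneuron-type and 74.6% in glutamatergic cells, differences that did not pass (0.703 and 0.444, edgeR). Other GABAergic cells, which were not in the fit, had a lower share of Pkm-202 than members, at 37.4% with both aliquots summed. Cdc42-201, of a small GTPase of the cytoskeleton, was 45.3% in members and 4.38% in radial glia-type cells (8.96e-08, edgeR).

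Of the 61 genes on a list with known isoform differences, drawn with earlier results in view, 26 could be tested. Against radial glia-type cells 13 passed, against glutamatergic cells 2 and against interneuron-type cells 1, beside 9.77, 0.752 and 1.00% of all 399 genes. Besides Pkm and Cdc42, Rtn4-205, of a reticulon that limits axon growth, was 84.4% in members and 49.6% in radial glia-type cells (edgeR adjusted p 0.00297). Gnas-208, of a G-protein subunit, was 96.4% against 90.4% (0.00340, edgeR), and Meg3-205, of a maternally expressed noncoding RNA, 56.2% against 29.1% (0.0180, edgeR). In the edgeR Simes test, which combines the p-values of single isoforms, the adjusted p was 0.312 for Meg3 and 0.00812 for Gnas. With no filter on low counts Gnas did not pass. Myl6-201, of a myosin light chain, was 4 of 13 (30.8%) and 98 of 139 (70.5%) in members and 42.5% in radial glia-type cells with both aliquots summed, so the 2 aliquots of members lay on either side of the radial glia value although its test passed (0.0270, edgeR). Myl6 did not pass in the edgeR Simes test (adjusted p 0.286), by DESeq2 or with no filter on low counts.

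Over the 31 genes, the share of the isoform that was raised most from radial glia-type cells had a median of 57.5% in members and 9.21% in radial glia-type cells. The raised isoform was higher than in radial glia-type cells in both aliquots for 28 of the 31. The exceptions were Ogt and Morf4l1, with equal shares in the 190 cell aliquot, and Myl6. The medians were 63.5% in interneuron-type and 59.2% in glutamatergic cells. The members' share lay between radial glia-type cells and both neuronal classes for 11 genes, above both for 15 and within their span for 5. Clta was one of the 11, and Gpm6b one of the 15. The isoforms were chosen for a high share in members, so these counts are not free of that choice and are no test against the neuronal classes.

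**Figure D5:**
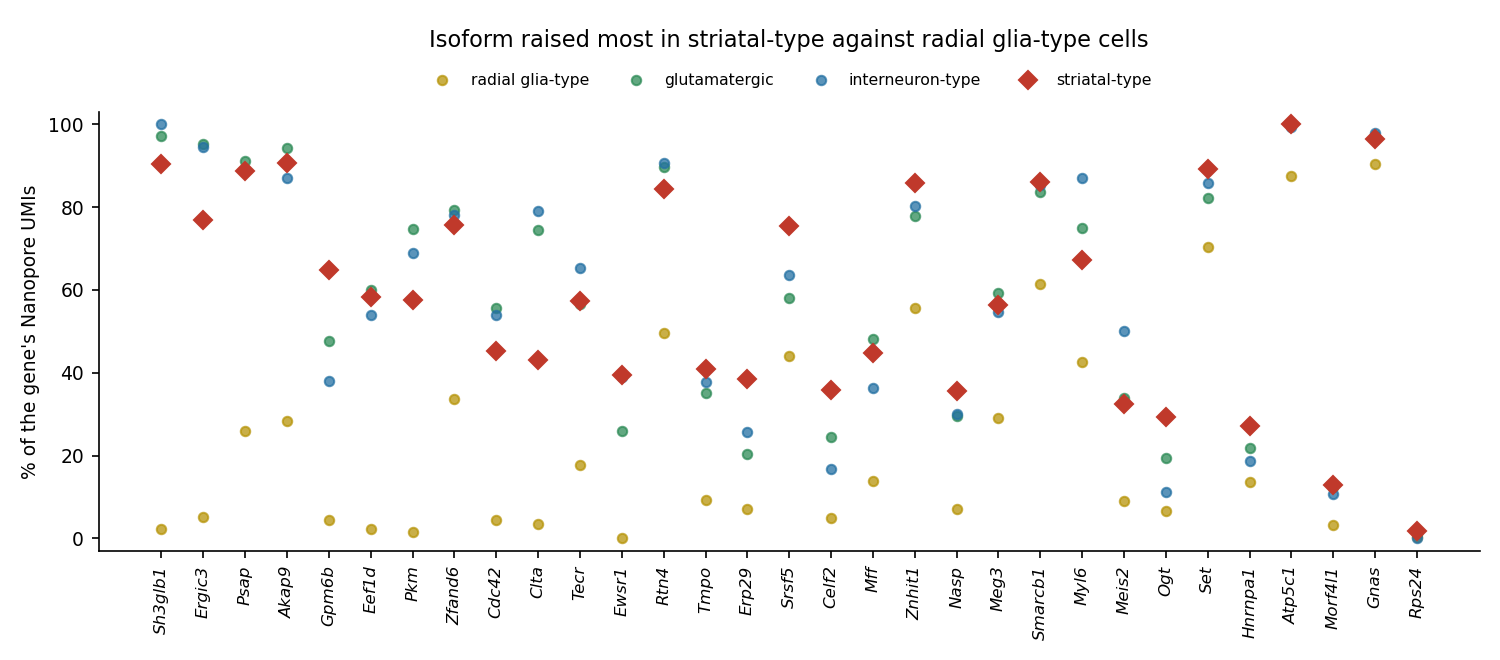
Share, in percent of a gene's Nanopore UMIs with both aliquots summed, of the isoform raised most from radial glia-type to striatal-type cells, for the 31 genes that passed with at least 30 UMIs in each class, one line of points per gene and one point per class. Radial glia-type cells lie below the members for each gene by the choice of isoform, whereas the members and the other neuronal classes were intermixed.

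Within the members, Clta-204 was 26 of 55 UMIs (47.3%) in the Ebf1 set, 14 of 50 (28%) in the Isl1 set and 35 of 69 (50.7%) in the third. Each of these was below the 79.0% of interneuron-type cells. Crmp1-201 was the sole Crmp1 form of the pair in all 3 sets, with 56, 20 and 46 UMIs. Pkm-202 ran from 43.3% in the Isl1 set to 67.7% in the Ebf1 set. The sets are too shallow for a test over aliquots, since the Isl1 set had 1 cell in the smaller one.

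The defining genes could be read only in part on the Nanopore platform. Members had 932 Illumina UMIs of Ebf1 and 6 Nanopore UMIs (0.644%), against a median of 78.2% over 602 genes with at least 100 Illumina UMIs that the isoform table also held. Ebf1 was the 11th lowest, and 28 of the genes were under 5%, among them Rtn1 (8 of 861, 0.929%) and Dcx (6 of 130, 4.62%). Meis2 gave 105 against 994 (10.6%), Bcl11b 29 against 344 (8.43%) and Foxp2 18 against 148 (12.2%). Isl1 (92 against 188, 48.9%) and Gad2 (87 against 245, 35.5%) were better covered. Zfhx3 had no Nanopore UMI in members. The cause of the gap was not tested. The leading Foxp1 isoform took 59 of its 76 UMIs (77.6%).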

How the data were processed

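Per the labels and the study's methods, the authors made 10x Genomics v2 libraries from a dissociated E18 brain. The deposited Illumina files hold counts of UMIs per gene and cell, made with Cell Ranger 2.0 on mm10 (GRCm38) according to the submitters' processing notes. The deposited Nanopore files hold UMI counts per Gencode isoform and cell, from reads the authors aligned with minimap2 and assigned to barcodes, UMIs and isoforms with Sicelore. Both were used as deposited, save for 121 Illumina rows whose symbol was duplicated. The members and gene lists were chosen with earlier results of these data known, and support nothing on their own.

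UMIs were summed per class and aliquot. Gene levels are CPM, and a gene was counted as higher or lower when the ratio of CPM plus 10 passed 2-fold the same way in both aliquots, among genes with at least 20 CPM in either class. Genes of the rule were left out of these counts. Examples of lists were taken in order of CPM, with the 15 highest ratios against all other cells and the 10 highest against interneuron-type cells among genes with at least 50 CPM in both aliquots, and 6 isoform genes per comparison, each with 30 or more UMIs in each class and 1 direction in both aliquots. Isoform usage was tested with diffSpliceDGE of edgeR 4.0.16 in R 4.3.3 (gene-level quasi-likelihood F test, TMM, filterByExpr, Benjamini-Hochberg adjustment), in 1 fit over 4 classes and 2 aliquots without a block, and was first tested on simulated data. DESeq2 1.42.0 was an alternative. Aliquot numbers pair the columns, since the labels mark 1 library each. The deviations between aliquots correlated at 0.069 to 0.125 between classes over 3880 isoforms. Exact intervals used scipy 1.17.1, and the cells that Scrublet (scanpy 1.11.5) marked as doublets were kept. Exon positions came from Gencode vM21 on GRCm38. Some genes that this choice would name are not reported here.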

Additional observations from a re-analysis of the deposited data

How the results depend on the processing

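Of the isoform tests of named genes, 167 of 200 alternatives kept their direction and side of the threshold. For gene levels only the direction was counted, and not whether a ratio stayed past 2-fold. There 136 of 137 kept their direction, although 49 of these moved by more than the standard deviation of the 2 aliquots. The exception was Zfhx4, whose log2 ratio against all other cells was -0.05 with Nanopore in place of Illumina counts, where it had no member UMI. Zfhx3 gave no value by Nanopore. The number of genes that passed against interneuron-type cells was 7 with the aliquot as a block and 7 with a striatal sum of at least 3. It was 2 with interneuron genes at 0, with only the 2 classes compared (134 genes tested) and, chosen after seeing the data, without barcodes found in both aliquots. It was 1 with no filter (Crmp1) and 1 by DESeq2 (Clta), where 1 passed against glutamatergic (Clta) and 24 against radial glia-type cells. With only the 2 classes compared, 15 passed against radial glia-type cells (174 tested). Leaving out 1 library at a time gave 0 to 4, 0 to 4 and 6 to 53 genes against the 3 classes, the lone library being taken to vary like the others. The block lost no call.

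Thinning each cell to 3000 UMIs left 45 members (4.01% of cells), 44 of them among the 69, and the aliquots alone gave 5.38 and 6.31%. With a pseudocount of 1 CPM, 133 genes were higher and 306 lower than in interneuron-type cells, and 141 higher than in glutamatergic cells. With a pseudocount of 50 CPM, higher and lower genes numbered 22 and 48 against interneuron-type, 25 and 63 against glutamatergic and 137 and 219 against radial glia-type cells. With at least 100 CPM they numbered 25 and 51, 27 and 65, and 173 and 224. TMM scaling moved the log2 ratios against glutamatergic cells by -0.20 in the 190 cell aliquot and those against radial glia-type cells by 0.10 in the 951 cell aliquot. The limits are those of 1 animal and of 10 members in the smaller aliquot, where 3 UMIs equal 56.2 CPM, so low genes could not be compared there. The causes of these shifts were not tested.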
